A study of Mus musculus with 6 samples.

Results

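The genes of muscle calcium release and reuptake followed here are Cacna1s, Cacng1, Ryr1, Ryr3, Casq1, Casq2, Srl, Atp2a1, Atp2a2 and Sln, 10 in all. They were chosen by gene symbol, with earlier results of these data known. In a table of 19057 mouse genes, 9 of the 10 had a probe that carries a single symbol. Cacna1s was not analysed here. The samples were lower molar tooth germs and the oral tissue of the mandible without teeth or bone, both from embryos of the outbred CD-1 stock at embryonic day 13.5, with no other treatment or allele named. Each of 3 litters gave a tooth germ sample and an oral tissue sample, each pooled over several embryos, and RNA was hybridised to 6 Illumina bead arrays of a single colour (n = 3 per tissue). Precision is limited by this number of arrays.

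Muscle contracts when an electrical signal on the surface membrane is turned into a rise of free calcium inside the fibre. The voltage sensor of that membrane, a calcium channel complex that includes Cacna1s and Cacng1, is coupled to the ryanodine receptor of the sarcoplasmic reticulum, which releases calcium held there by calsequestrin. Pumps of the SERCA family then return the calcium to the store, and small membrane peptides such as sarcolipin hold these pumps back. In the embryonic mandible, skeletal muscle of the tongue and jaw forms from mesoderm beside the tooth buds, while the tooth germ itself consists of oral epithelium and mesenchyme derived from the neural crest.

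The sample labels contradict each other. Titles and descriptions call a set of 3 samples tooth germ, and the source and tissue fields give that name to the other set. Samples are named here by title, and under the other naming every difference below changes sign. Of 11 genes of dental mesenchyme and epithelium 9 were higher and 0 lower in the samples titled tooth germ, against 2.39% and 3.42% of all genes. Pax9 and Lhx8 were not called, and the list was chosen with earlier results of these data known. Msx1 was among the higher genes (log2 difference 1.47, adjusted p = 6.25e-05), and the muscle regulator Myod1 was lower in those samples (-1.47, adjusted p = 1.56e-05). Over all probes, arrays of the same tissue correlated at 0.995 or more, and arrays of different tissues at 0.988 to 0.993. All signals are on the deposited log2 scale, which runs from 6.61 to 14.88 with a median of 7.01. Differences of dim probes may be understated on it.

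Promoter sequence was available for 5 of the 10 genes, and that of 3 genes that were lower together in tooth germ is shown so that sequences in front of genes with a shared pattern can be seen side by side. Each line holds the 250 bases before the RefSeq start of the gene in GRCm38.p6, read 5′ to 3′ along the gene. Capitals mark E-boxes (CANNTG, the letters bound by myogenic factors such as Myod1) and MEF2 sites, both searched on both strands.
Atp2a1 (chr7:126463074-126463323, minus strand): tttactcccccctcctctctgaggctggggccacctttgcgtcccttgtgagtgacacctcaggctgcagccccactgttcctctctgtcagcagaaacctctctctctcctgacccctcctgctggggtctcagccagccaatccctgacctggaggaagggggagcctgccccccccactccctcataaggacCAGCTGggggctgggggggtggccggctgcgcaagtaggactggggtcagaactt
Ryr1 (chr7:29125152-29125401, minus strand): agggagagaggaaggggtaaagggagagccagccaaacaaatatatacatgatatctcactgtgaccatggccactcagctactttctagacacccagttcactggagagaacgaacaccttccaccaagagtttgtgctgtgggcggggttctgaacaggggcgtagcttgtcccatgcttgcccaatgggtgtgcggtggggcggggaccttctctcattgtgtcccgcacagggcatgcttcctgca
Casq2 (chr3:102086165-102086414, plus strand): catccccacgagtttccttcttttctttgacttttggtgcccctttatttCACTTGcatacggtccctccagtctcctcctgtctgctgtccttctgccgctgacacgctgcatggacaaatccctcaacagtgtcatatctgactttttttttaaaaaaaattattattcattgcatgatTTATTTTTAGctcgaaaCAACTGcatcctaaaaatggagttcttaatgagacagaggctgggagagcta
The Atp2a1 window held 1 E-box, with the letters CAGCTG, and the Ryr1 window held 0 E-boxes. The Casq2 window held 2 E-boxes, CACTTG and CAACTG, and a MEF2 site that starts 69 bases before the gene. The windows of Casq1 and Cacna1s, not printed, held 2 E-boxes each and 0 MEF2 sites. Among 32851 windows of this length, 66.2% held an E-box and 2.92% a MEF2 site, and neither motif was found in all 3 printed windows.

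The 9 measured genes were all lower on average in tooth germ, and for 7 of them the difference passed the test over all genes (limma, adjusted p under 0.05). Those 7 were Atp2a1, Sln, Ryr1, Srl, Casq2, Atp2a2 and Cacng1, and the other two were Casq1 and Ryr3. Over all 19057 genes 3.42% were called lower and 2.39% higher. With litter as a block in the fit 8 of the 9 were called lower, Casq1 being added, against 5.02% of all genes. For all 9 genes each tooth germ sample lay below each oral tissue sample, a pattern shown by 11.2% of all genes, while 11.9% showed the opposite. Because the genes were chosen with earlier results of these data known, these counts are a description and not independent support. The median difference of the 9 genes was -0.94 on the log2 scale, against 0.0026 over all genes. In pooled bulk tissue, fewer muscle cells and less RNA of these genes per cell cannot be told apart.

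**Figure D1:**
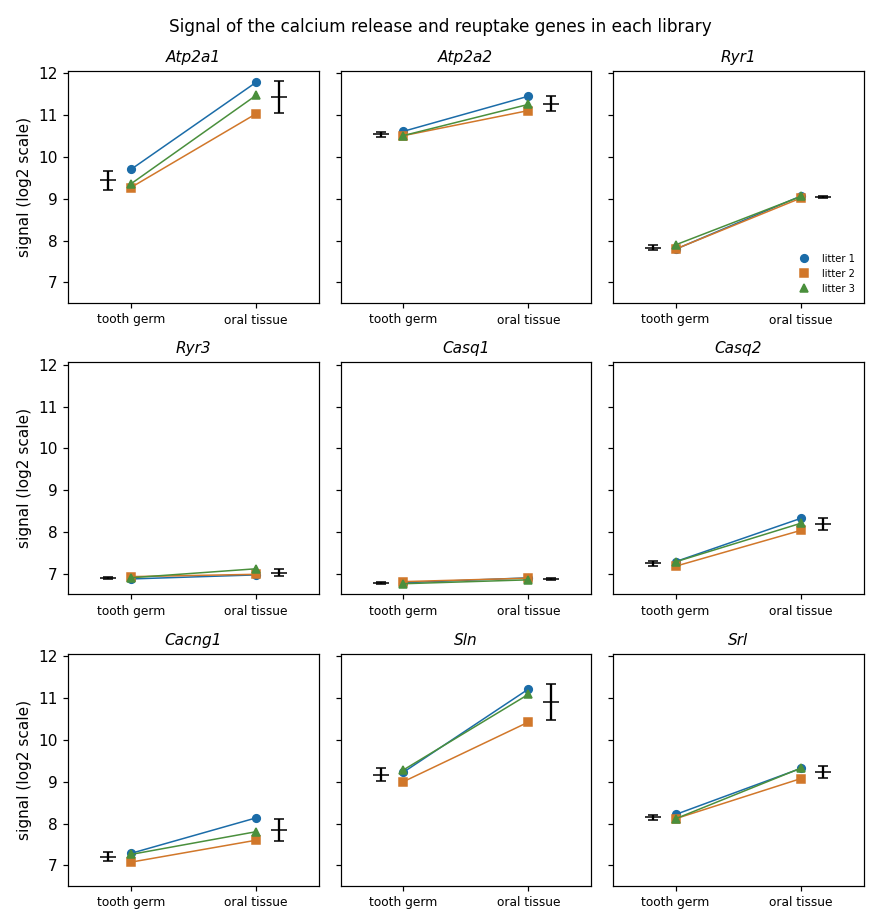
Signal (log2 scale, vertical axis) of the brightest probe of each gene in tooth germ (left) and oral tissue (right), with lines joining samples of the same litter and black bars giving mean ± SD (n = 3). The tooth germ end of all 3 lines is the lower end in every panel, by 1.43 or more for Atp2a1 and Sln and by 0.22 or less for Ryr3 and Casq1.

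Among genes of the voltage sensor, Cacng1 was measured. It encodes the gamma subunit of the skeletal muscle calcium channel. Cacng1 had signals of 7.29, 7.08 and 7.26 in tooth germ samples 1, 2 and 3, against 8.14, 7.60 and 7.80 in oral tissue samples 1, 2 and 3. Tooth germ lay lower in each litter and the tissues did not overlap, with an SD of 0.115 in tooth germ and 0.270 in oral tissue. The log2 difference was -0.64 (SE 0.11, adjusted p = 0.00515), or 1.56-fold lower in tooth germ.

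The release channel of skeletal muscle, Ryr1, was lower in tooth germ, with little spread between samples at its brightest probe. Its brightest probe had signals of 7.79, 7.79 and 7.90 in tooth germ, against 9.06, 9.02 and 9.05 in oral tissue. The oral tissue samples agreed within an SD of 0.026, the narrowest spread among the 7 called genes in that tissue, where Sln had 0.425. At the other bright Ryr1 probes the oral tissue SD was wider, at 0.135 and 0.107. The log2 difference of Ryr1 was -1.22 (SE 0.070, adjusted p = 5.91e-06), or 2.32-fold, and it ranked 5 among 19057 genes by p-value. The other receptor measured, Ryr3, which embryonic skeletal muscle makes beside Ryr1, stood near the median of all signals. That median, 7.01, is close to the lowest value of the scale, 6.61. Ryr3 had signals of 6.88, 6.93 and 6.91 in tooth germ, against 6.97, 6.99 and 7.12 in oral tissue. Its log2 difference of -0.12 did not pass the test (95% interval -0.21 to -0.03, adjusted p = 0.129), and each of its remaining 3 probes differed by -0.04. A further probe shared by Ryr3 and another gene was left out.

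Of the calcium-binding proteins of the store, Casq2 and Srl were lower in tooth germ and Casq1 did not pass the test. Casq2, the calsequestrin of heart and of slow and immature skeletal fibres, had signals of 7.29, 7.18 and 7.29 in tooth germ, against 8.33, 8.04 and 8.21 in oral tissue. It was lower in tooth germ in all 3 litters, and the mean was 1.92-fold lower (log2 difference -0.94, SE 0.080, adjusted p = 3.67e-05). Srl encodes sarcalumenin, which binds calcium inside the store and stabilises the pump. Srl read 8.22, 8.12 and 8.11 in tooth germ, against 9.32, 9.08 and 9.33 in oral tissue, for a log2 difference of -1.09 with SE 0.087 (adjusted p = 2.61e-05). Casq1, the calsequestrin of fast skeletal fibres, was dim in every sample. Casq1 had signals of 6.79, 6.81 and 6.76 in tooth germ, against 6.90, 6.90 and 6.86 in oral tissue, all below the median of all values. The samples of the tissues did not overlap, but the log2 difference was -0.10 (95% interval -0.16 to -0.04) and missed the threshold at adjusted p = 0.0531, while the fit with litter as a block gave adjusted p = 0.0479. Whether this probe rose above background could not be judged from these values.

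At their brightest probes both pumps were lower in tooth germ, with a larger measured difference for Atp2a1. Atp2a1, the SERCA1 pump of fast skeletal muscle, had signals of 9.70, 9.27 and 9.35 in tooth germ, against 11.79, 11.03 and 11.47 in oral tissue. All 3 tooth germ samples were lower than any oral tissue sample by more than 1 on the log2 scale, and the mean difference was -1.99 (SE 0.17, adjusted p = 3.49e-05), or 3.97-fold. Atp2a2, the SERCA2 pump, has a form used by heart and slow muscle and a form used by nearly every cell. Atp2a2 had signals of 10.61, 10.51 and 10.51 in tooth germ, against 11.45, 11.11 and 11.26 in oral tissue. The tooth germ samples lay within an SD of 0.059 of each other and below all oral tissue samples, and the mean was 1.66-fold lower (log2 difference -0.73, SE 0.094, adjusted p = 6.06e-04).

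The 95% interval of the Atp2a1 difference, -2.36 to -1.62, did not meet that of Atp2a2, -0.94 to -0.52. The change of Atp2a1 relative to Atp2a2 on the same array, tooth germ minus oral tissue, was -1.24, -1.16 and -1.37 in litters 1, 2 and 3 (mean -1.26, SD 0.105). In an exact permutation test over the 6 samples, two-sided, this gave p = 0.1, the smallest value that 3 samples against 3 allow, and p = 0.15 after Benjamini-Hochberg adjustment over 3 such ratios. That test takes no account of the litters. All 3 within-litter changes had the same sign for each of the 3 ratios, and an exact permutation test of those signs gave p = 0.25, the smallest value that 3 litters allow, before and after adjustment. These 3 ratios, and the test within litters, were chosen after the values were seen.

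Sln encodes sarcolipin, a short peptide that lowers the efficiency of the SERCA pumps. Sln had signals of 9.22, 9.00 and 9.28 in tooth germ, against 11.22, 10.43 and 11.09 in oral tissue. Oral tissue sample 2 lay well under the other two but above every tooth germ sample, and the log2 difference was -1.74 (SE 0.17, adjusted p = 8.26e-05), or 3.35-fold. Sln changed relative to Atp2a1 by 0.09, 0.34 and 0.31 in the 3 litters, above 0 in each, while the ratios of the 6 samples overlapped between the tissues (exact permutation test, two-sided, p = 0.2, and p = 0.2 after adjustment over the 3 ratios).

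Of the 9 genes 5 had several probes, 22 probes in all, and the probes of a gene did not always move together. Ryr1 had 3 probes with almost the same difference, -1.22, -1.21 and -1.15, and 2 dim probes at -0.16 (adjusted p = 0.0795 over all probes) and -0.06 (adjusted p = 0.280). Srl had a dimmer probe at -0.46 (adjusted p = 0.00119) and a probe near the median of all values at -0.002 (95% interval -0.11 to 0.10). The second Sln probe, at a mean of 6.81 in both tissues, differed by 0.005 (adjusted p = 0.967), against -1.74 at the bright probe.

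The probes of Atp2a2 disagreed although 3 of them were bright. Both bright probes annotated to its RefSeq transcript were lower in tooth germ, by -0.73 and -0.93 (adjusted p = 7.35e-04 and 0.00137 over all probes). The bright probe annotated to a cDNA clone had signals of 10.46, 9.94 and 10.22 in tooth germ, against 10.31, 9.95 and 10.10 in oral tissue. Those samples overlapped, and the difference was 0.09 (95% interval -0.20 to 0.37). The remaining, dim probe differed by -0.01. The brightest probe changed relative to the clone probe by -0.99, -0.59 and -0.87 in the 3 litters (exact permutation test, two-sided, p = 0.1, the smallest possible, and p = 0.15 after adjustment over the 3 ratios). With all probes of a gene averaged in place of taking the brightest, the differences were smaller but still called, at -0.40 for Atp2a2, -0.76 for Ryr1, -0.87 for Sln and -0.52 for Srl.

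**Figure D2:**
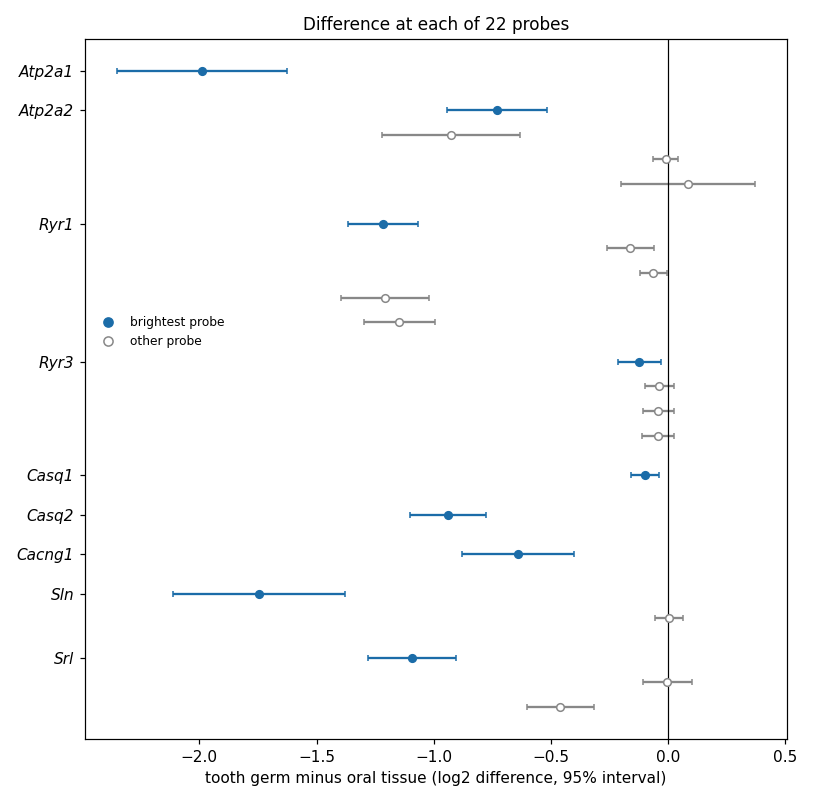
Difference between tooth germ and oral tissue (log2, horizontal axis) at each probe of the 9 genes, with 95% intervals from the fit over all probes. Filled points are the brightest probe of a gene and open points its other probes. Open points near 0 stand beside filled points far below 0 for Sln, Srl, Ryr1 and Atp2a2.

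Within oral tissue the 7 called genes shared an order of samples. Oral tissue sample 2 was the lowest of the 3 for 7 of 7 genes, and oral tissue sample 1 was the highest for 6 of 7. The median of 22 sarcomere genes had the same order, with 9.86 to 10.10 in tooth germ, and 12.04, 11.29 and 11.84 in oral tissue samples 1, 2 and 3. The spread was wide for Sln (SD 0.425) and Atp2a1 (SD 0.378), and narrow for the brightest probe of Ryr1. All 7 genes were still called when oral tissue sample 2, or any other sample, was left out.

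**Figure D3:**
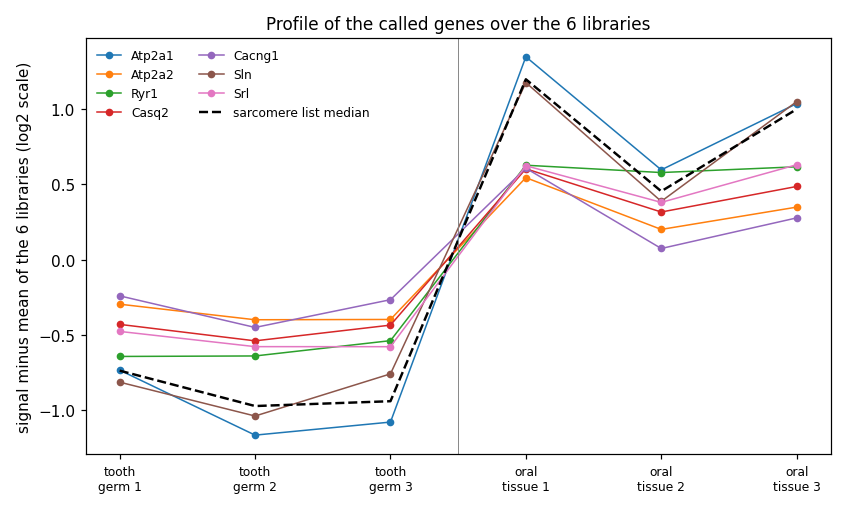
Signal minus the mean of the 6 samples (log2 scale, vertical axis) of the 7 called genes in each sample, with the sarcomere median dashed. Oral tissue sample 2 is the lowest oral tissue sample in every line. The Ryr1 line, drawn from its brightest probe, is nearly flat across oral tissue.

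The genes of the whole array with the most similar profile to the mean of the 9 were sought among 306 bright and variable genes. Tnni1, the slow troponin I, came first, followed by Unc45b, a chaperone of muscle myosin, Chrna1, a subunit of the acetylcholine receptor of muscle, Myl4, an embryonic myosin light chain, and Lhfpl2. Their Pearson correlations over the 6 arrays ran between 0.9978 and 0.9996. The 6 points fall into 2 tissues, so the values mostly describe the difference between tissues, and they are given as a description. Tnni1 had a log2 difference of -1.50 and Lhfpl2 of -0.76.

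Some other genes of the coupling machinery and the calcium store were lower in tooth germ too. Of 28 measured genes of a coupling and calcium store list 8 were called lower (28.6%, against 3.42% of all genes), 1 higher and 19 were not called, with a median log2 difference of -0.11. With litter as a block 11 were called lower, against 5.02% of all genes. This list too was chosen with earlier results of these data known. The count was 4 without litter 1 and 5 without litter 3. Stac3, an adaptor that carries the voltage sensor to the membrane, had signals of 7.22, 7.12 and 7.16 in tooth germ, against 7.76, 7.47 and 7.78 in oral tissue (log2 difference -0.51, SE 0.079, adjusted p = 0.00213). Jph2, a junctophilin that tethers the store to the surface membrane, had signals of 7.00, 6.98 and 7.07 in tooth germ, against 7.58, 7.33 and 7.52 in oral tissue (-0.46, adjusted p = 0.00102). Its relative Jph1 overlapped between tissues, at -0.11 (adjusted p = 0.620).

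Several of the list's called genes shape or line the membranes where coupling takes place. Sypl2, a membrane protein of the triad junction also called mitsugumin 29, differed by -0.91 (SE 0.14, adjusted p = 0.00194). Bin1, which curves the membrane of the transverse tubules, differed by -0.50 (adjusted p = 0.00188), and Cav3, the caveolin of muscle, by -0.33 (adjusted p = 0.00665). Tmem38a, a potassium channel of the store that balances charge during release, differed by -0.34 (adjusted p = 0.0126). Calls of Cav3 and Tmem38a were lost in 2 and 4 of 17 alternatives. Sypl2, Bin1 and Jph2 have 3 probes each, and with the mean of all probes their differences were -0.29, -0.21 and -0.18, smaller but still called.

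Partners and relatives of the 9 genes were mixed. Atp2a3, the SERCA3 pump of blood, endothelial and epithelial cells, had signals of 7.04, 7.18 and 7.20 in tooth germ, against 7.74, 7.36 and 8.25 in oral tissue. The tissues did not overlap, but oral tissue was widely spread, and the call (-0.64, SE 0.16, adjusted p = 0.0415) was lost in 11 of 17 alternatives. Cacna2d1, an accessory subunit of the calcium channel, differed by -0.40 (adjusted p = 0.0693, and 0.0463 with litter as a block). With the mean of its 3 probes it differed by -0.08. Cacnb1, a beta subunit, at -0.04 and Cacna1c, the channel of heart and smooth muscle, at 0.01, were not called, with 95% intervals of -0.15 to 0.08 and -0.09 to 0.11. Cacng6, another gamma subunit, named after its values were seen, was not called either, at -0.07 (95% interval -0.14 to 0.01, adjusted p = 0.350), with a dim probe whose samples did not overlap between tissues.

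Ryr2 and Pln, of the heart version of the system, and Trdn stayed near the median of all signals. That median, 7.01, is close to the lowest value of the scale, 6.61. Ryr2, the ryanodine receptor of heart and brain, differed by -0.12 (adjusted p = 0.314). Pln, the phospholamban peptide that restrains SERCA2 in heart, had signals of 6.82, 6.84 and 6.84 in tooth germ, against 6.79, 6.79 and 6.84 in oral tissue. Trdn, triadin, which anchors calsequestrin to the release channel, differed by 0.02 at a similarly dim probe (adjusted p = 0.831). Slc8a1, an exchanger that removes calcium from the cell in return for sodium, was the list's gene called higher in tooth germ. It had signals of 8.75, 8.62 and 8.51 there, against 8.35, 8.10 and 8.19 in oral tissue (log2 difference 0.41, SE 0.088, adjusted p = 0.0159, lost in 8 of 17 alternatives).

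Of 20 calcium genes that nearly all cells use, among them inositol trisphosphate receptors, Stim and Orai proteins of store refilling and calmodulins, 0 were called lower and 1 higher, and the median difference was 0.04. With 3.42% of all genes called lower and 2.39% higher, counts of this size in 20 genes lie near the background. The gene called higher was S100a6, a small calcium-binding protein, at 0.82 (SE 0.099, adjusted p = 3.93e-04). Of 20 differences 7 were below 0.

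**Figure D4:**
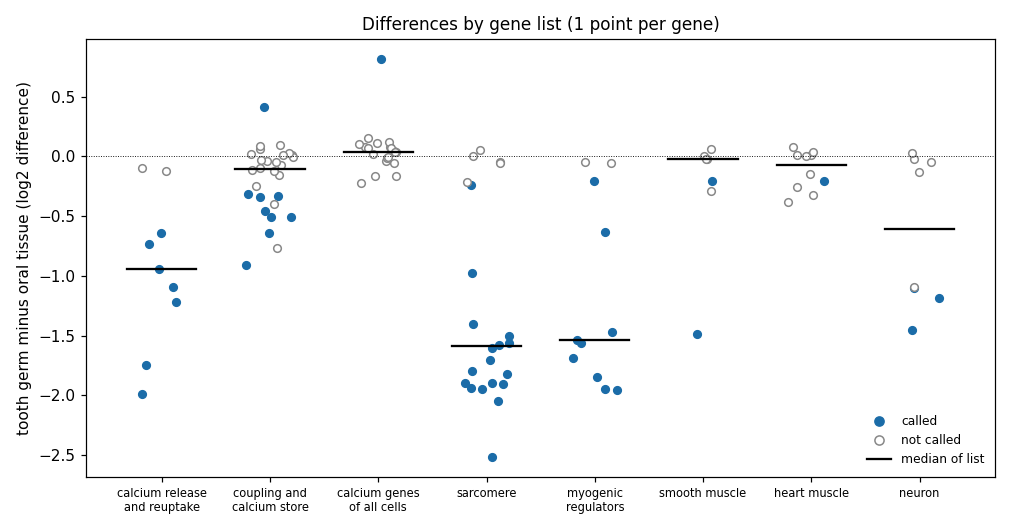
Difference between tooth germ and oral tissue (log2, vertical axis) of each gene in 8 lists, filled where called and open where not, with black lines at list medians. The 9 calcium release and reuptake genes lie between -1.99 and -0.10 with a median of -0.94, and the medians are -1.59 for the sarcomere list and 0.04 for the calcium genes of all cells.

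Most markers of skeletal muscle were also lower in tooth germ. Of 22 sarcomere genes 17 were called lower and 0 higher, with a median of -1.59. Of 11 myogenic regulators and early muscle genes 9 were lower and 0 higher, with a median of -1.54. Over all genes 3.42% were called lower. The sarcomere genes not called were Neb, Tpm1, Tpm3, Ckm and Ldb3, at -0.21 to 0.05. The regulators not called were the dim Myf5 and Pax7, both at -0.05. These lists were chosen with earlier results of the same data known. The called genes were also set against the median signal of the sarcomere genes on the same array. That signal is a measure other than the median difference of -1.59. Relative to that signal Atp2a1 changed by -0.22 and Sln by 0.03, tooth germ minus oral tissue, while Atp2a2 changed by 1.04. Ryr1 changed by 0.55 and Srl by 0.68 relative to it, Casq2 by 0.83 and Cacng1 by 1.13. So 6 of the 7 called genes, all but Atp2a1, had changes above 0 relative to that median signal, Sln barely so. The median signal itself was lower in tooth germ, at 9.86 to 10.10 against 11.29 to 12.04 in oral tissue. A gene with no difference between the tissues therefore also lies above 0 on this measure. The share of all genes above 0 was not computed, so the count is not particular to these genes. The sign for Sln depends on the measure, as its difference of -1.74 lies below the median difference of -1.59. The ratios overlapped between the tissues for Sln and Ryr1, and none of these changes was tested. Casq1 and Ryr3 are left out because differences of dim probes may be understated on this scale, which also applies in part to Cacng1 and Casq2.

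Some markers of neurons and of smooth muscle, and 1 of heart muscle, were called lower in tooth germ. Of 8 neuron genes 3 were lower (37.5%, against 3.42% of all genes) and 0 higher. With litter as a block 4 were lower, against 5.02% of all genes. The log2 of the summed signal of the 8 genes ran from 10.45 to 10.62 in tooth germ. In oral tissue it ran from 11.17 to 11.94, and sample 1 was the highest. Of 7 smooth muscle genes 2 were lower (28.6%), 0 higher. These were Acta2, a smooth muscle actin that embryonic skeletal muscle also makes, at -1.49, and Myh11, the myosin of smooth muscle, at -0.21, a call lost in 6 of 17 alternatives. The summed smooth muscle signal, most of it Acta2, ran from 12.57 to 12.59 in tooth germ and from 13.60 to 14.04 in oral tissue. The median over the 7 genes was 7.03 to 7.05 in tooth germ and 7.05 to 7.06 in oral tissue, and their median difference was -0.02. Of 10 heart muscle genes 1 was lower (10%), Myh6 at -0.20, a call lost in 12 of 17 alternatives. With litter as a block 3 of the heart muscle genes were lower. The summed signals of the tissues overlapped, at 10.25 to 10.36 in tooth germ and 10.32 to 10.55 in oral tissue. Of these lists 4 neuron, 2 smooth muscle and 5 heart muscle genes averaged below the median signal of the table. The lists too were chosen with earlier results of these data known. The part of skeletal muscle content and of these other cell types in the differences of the 9 genes was not tested.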

How the data were processed

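Total RNA of 6 samples was measured on Illumina arrays with Cy3. The deposited values are log2-scale signals per probe, made with lumi 2.8.0 per the submitters' processing notes. Its background correction, and the choice between plain log2 and a variance-stabilising transformation, are not given in the sources used here. Sorted columns of the deposited log2 table differed by at most 0.000827, so it was taken as quantile normalized and used as it stands. Detection p-values were not used here.

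Of 45281 probes 34885 had 1 gene symbol in the platform annotation, 18 several and 10378 none. The brightest probe by mean signal stood for a gene, which left 19057 genes. Tissues, named by title, were compared in R 4.3.3 using limma 3.58.1 (lmFit, eBayes with a trend, 4 residual degrees of freedom), with Benjamini-Hochberg adjustment over all genes and a threshold of 0.05. Other probes were fitted over all 34885 probes. SE is the moderated standard error. The test was checked on simulated data.

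Per the labels, samples that share a number share a litter. Deviations from the tissue means correlated at 0.413, 0.233 and 0.266 over 9528 genes in the 3 same-numbered pairs. In pairs of unlike number the correlations ran from -0.267 to -0.072. Each tissue was centred on its own mean, so the negative values follow in part from the positive ones. Samples that share a number thus varied together, and the source of this was not tested. An alternative fit with a block for litter leaves 2 residual degrees of freedom. It is given where it changes the call of a named gene or the count of a list. All other SEs, intervals and adjusted p-values of the tissue comparison come from the fit without litter. A test of 3 ratios within litters was added after seeing the data.

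The 10 genes and all lists were chosen with earlier results of these data known. Named were all members, 10 fixed partners, the 5 other called genes of the coupling list with the largest difference, up to 4 called genes of the other lists, of which some are given only in counts, Msx1 and Myod1, and the 5 genes of most similar profile, with a range of at least 1 on the log2 scale and a mean above the median of all values. Alternatives were the litter block, repeated normalization, median centring, averaging of a gene's probes, removal of dim probes, other eBayes settings, a threshold of 0.01, and leaving out samples or litters.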

Additional observations from a re-analysis of the deposited data

How the results depend on the processing

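The 7 called genes kept their call and direction in all 17 alternatives, and the count of the 9 called lower was 7, or 8 with litter as a replicate block and with the mean of all probes, where Casq1 was called (-0.10, adjusted p = 0.0479 and 0.0466). With the replicate block 736 genes were called higher and 957 lower, against 456 and 651 without it. At a threshold of 0.01 the counts were 218 and 383, and of the coupling and calcium store list 0 were called higher and 5 lower. Leaving out a sample or a litter gave 195 to 368 genes higher and 354 to 663 lower, and for that list 0 to 1 higher and 4 to 8 lower. Without a sample or litter fewer arrays enter the fit. Removal of dim probes left no probe for Casq1 and Ryr3, so those have no value there. Median centring and repeated quantile normalization gave the same counts. The table was already quantile normalized, so these alternatives could hardly change a call and add little to the 17. The replicate block changed no other call among the partners named, apart from Cacna2d1. Signals near the floor of the scale limit what can be said of Casq1, Ryr3, Ryr2, Pln and Trdn.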
